A study of Mus musculus with 6 samples.

Results

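The guanylate-binding proteins are a family of large GTPases, and their genes were followed here in mouse brain endothelial cells in which the long non-coding RNA Gm39822 was knocked down. The members were the 9 rows of the count table named Gbp2, Gbp3, Gbp4, Gbp5, Gbp6, Gbp7, Gbp8, Gbp9 and Gbp10, of 49315 gene rows in all, and all 9 passed the filter that left 18234 genes for testing. The cells were bEND.3, a mouse brain endothelial line immortalised with a viral oncogene, and RNA was sequenced after depletion of ribosomal RNA. In 4 samples the cells had received a GapmeR, an antisense oligonucleotide with locked nucleic acid ends that directs RNase H to its target RNA, against Gm39822. The 2 Negative Control samples had received a control GapmeR, and both oligonucleotides were given at 100 nM with the same transfection reagent. The labels name a single targeting GapmeR, so loss of Gm39822 and any other action of that oligonucleotide cannot be told apart, and they do not say whether the samples came from separate cultures, so the p-values measure the spread between these samples, which may be technical.

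Guanylate-binding proteins are among the transcripts most strongly induced by interferon gamma, which acts through its receptor, the Janus kinases and transcription factors that include IRF1. The proteins assemble on the membranes of bacteria and of vacuoles that hold parasites, together with the immunity-related GTPases and with help from the ATG8 conjugation machinery. Some carry a lipid anchor added by isoprenylation, and several promote inflammasome signalling and pyroptosis. In mice the genes lie in 2 clusters, one on chromosome 3 and one on chromosome 5.

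Gm39822, the targeted RNA, was counted 2, 1, 4 and 2 times in GapmeR samples 1 to 4, against 61 and 56 times in the controls. Its log2 fold change was -4.82, with a standard error of 0.41 (edgeR adjusted p = 8.8e-08). Total counts were between 29261988 and 37117934 per sample, of which 0.165% to 0.224% fell on the 9 members. All 14 endothelial markers had counts, with a summed level of 9415 to 10789 CPM, counts scaled to the size of each library, in the GapmeR samples and 11238 to 11710 CPM in the controls. Markers of macrophages summed to 208 to 386 CPM and 170.1 to 175 CPM, those of pericytes and smooth muscle to 8.56 to 13.1 CPM and 2.16 to 2.26 CPM, and those of astrocytes and neurons to 25.4 to 41.8 CPM and 52.4 to 54.3 CPM, in the same order of groups. No marker was at 0 in every sample. Past the threshold, 7 of 14 endothelial markers were lower, among them Emcn at a log2 fold change of -1.33. The 2 that were higher were Erg, at 1.12, and Egfl7, at 0.22. Of the astrocyte and neuron markers, 5 of 8 were lower. Of the pericyte and smooth muscle markers, Myh11 and Tagln were higher, at 4.19 and 1.96. The 12 tested macrophage markers all had positive log2 fold changes, from 0.32 to 1.92 with a median of 1.07. Of these, Cd68 and Fcer1g passed as higher, and GapmeR samples 3 and 4 had the highest summed macrophage levels. The part of these markers in the results on the family was not tested. Fits without GapmeR samples 3 and 4 kept samples 1 and 2, whose summed macrophage levels were also above both controls.

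Promoters are shown because the family is known for its interferon-responsive promoters. No window was available for the chromosome 5 members, among which Gbp6 and Gbp10 fell and Gbp8 rose. The promoters of the 4 chromosome 3 members, of which 3 fell, are therefore the only ones shown. They are RefSeq windows on GRCm38.p6, the build of the counts, plus strand, from 250 bases before to 50 bases after the annotated start. Capitals mark TTTC, any 2 bases and TTTC, which on the other strand reads GAAA, any 2 bases and GAAA, the core of the interferon-stimulated response element.
Gbp5, chr3:142496684-142496983: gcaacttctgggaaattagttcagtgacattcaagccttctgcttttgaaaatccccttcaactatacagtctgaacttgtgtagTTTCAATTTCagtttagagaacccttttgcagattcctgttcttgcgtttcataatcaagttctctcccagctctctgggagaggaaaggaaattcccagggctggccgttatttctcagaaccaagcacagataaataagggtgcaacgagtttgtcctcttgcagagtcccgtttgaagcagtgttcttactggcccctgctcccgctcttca
Gbp7, chr3:142530086-142530385: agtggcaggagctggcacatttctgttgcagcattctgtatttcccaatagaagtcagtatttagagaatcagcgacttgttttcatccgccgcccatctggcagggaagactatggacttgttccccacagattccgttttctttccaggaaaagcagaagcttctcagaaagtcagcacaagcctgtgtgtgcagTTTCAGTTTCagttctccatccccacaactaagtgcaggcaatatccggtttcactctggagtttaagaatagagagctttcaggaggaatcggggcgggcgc
Gbp3, chr3:142559794-142560093: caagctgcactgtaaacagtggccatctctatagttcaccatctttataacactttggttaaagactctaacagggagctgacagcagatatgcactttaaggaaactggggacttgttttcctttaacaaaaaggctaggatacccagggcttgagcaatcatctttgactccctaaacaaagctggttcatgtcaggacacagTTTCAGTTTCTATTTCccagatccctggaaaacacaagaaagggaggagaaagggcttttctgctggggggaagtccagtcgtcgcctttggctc
Gbp2, chr3:142620413-142620712: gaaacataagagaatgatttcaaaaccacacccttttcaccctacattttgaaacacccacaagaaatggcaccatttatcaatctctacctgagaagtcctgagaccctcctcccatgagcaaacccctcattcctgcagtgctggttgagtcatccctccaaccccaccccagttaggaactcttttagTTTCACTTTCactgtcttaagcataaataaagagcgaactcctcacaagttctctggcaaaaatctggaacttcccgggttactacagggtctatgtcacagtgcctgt

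These letters began 165 bases before the start in Gbp5, 53 in Gbp7, 59 in Gbp2 and 45 in Gbp3, where a second match overlapped the first. On either strand they occurred in 3.44% of 32851 windows. A second window of Gbp3 held none, and that of Gbp2b, a neighbour that is not among the 9, held 1. The letters TTC, any 3 bases and GAA, the core of the gamma-activated site, occurred in 8.3% of windows and were found 2 times each in Gbp5 and Gbp7 and not in Gbp3 or Gbp2. Outside the 9 members, 147 of the 459 tested genes with the first letters in a window were lower in the GapmeR samples past the threshold (32.0%). Of genes without them, 2565 of 11646 were lower (22.0%). Higher genes were 20.3% of those with the letters and 26.1% of those without. For the second letters, lower genes were 22.6% of 995 genes with them and 22.4% of 11110 without. Higher genes were 25.5% and 25.9% of these. These shares are given as a description with no test, and a match of letters is not a binding site.

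Of the 9 members, 5 fell in the GapmeR samples (Gbp2, Gbp5, Gbp6, Gbp7 and Gbp10), 1 rose (Gbp8) and 3 did not pass the threshold (Gbp3, Gbp4 and Gbp9). Over all genes tested, 20.0% were lower and 25.4% higher at an edgeR adjusted p under 0.05. Lower genes were 44.1% of those called, and 25.9% with scaling by library size only. Without GapmeR samples 3 and 4, again 5 members were lower and 1 was higher. Of the members, 4 were lower by at least 1.5-fold past the threshold, against 7.62% of all genes. The median log2 fold change was -0.41 over the 9 members and 0.03 over all genes tested. The GapmeR and control samples did not overlap in 6 of the 9 members, against 59.2% of all genes, so the share of members without overlap was close to that of all genes. For each of those 6 the two-sided exact permutation test over the 6 samples gave p = 0.0667, the smallest that 15 splits allow. In such bulk samples, fewer cells that express a gene and less of its RNA per cell cannot be told apart.

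**Figure D1:**
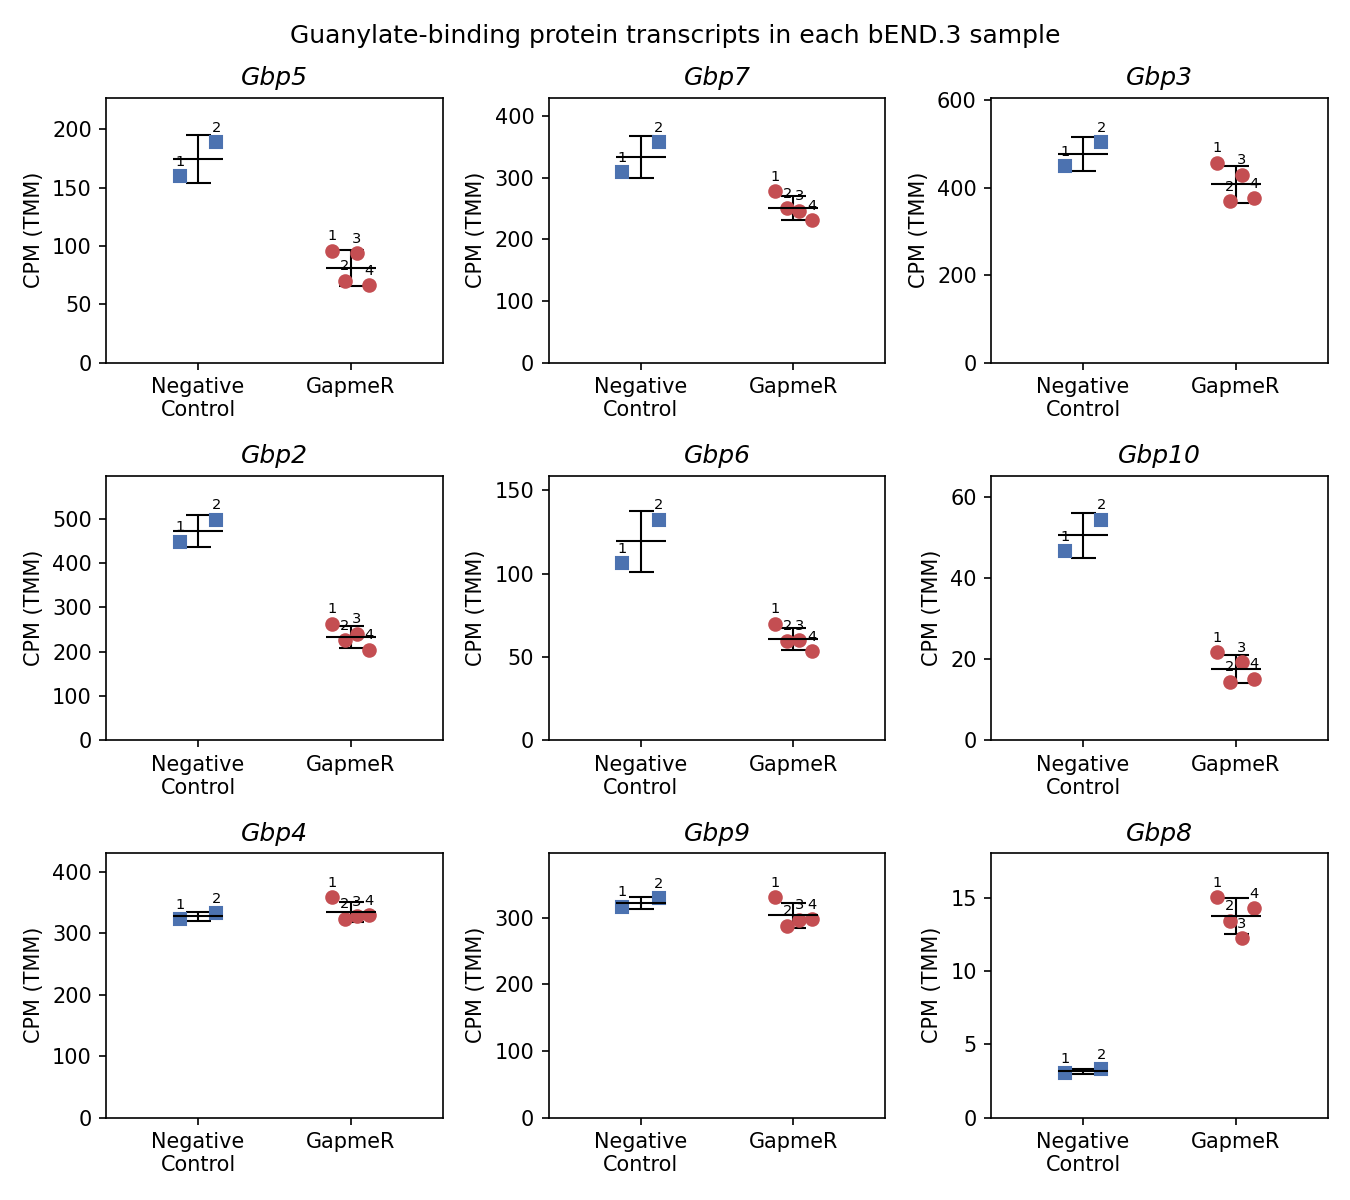
TMM-normalised CPM (vertical axes, each from 0) of the 9 genes in the 2 Negative Control samples (squares) and the 4 GapmeR samples (circles), numbered by sample, with the mean and SD of each group in black. The groups are apart in Gbp5, Gbp7, Gbp2, Gbp6 and Gbp10, where the GapmeR samples are lower, and in Gbp8, where they lie between 12.3 and 15.1 CPM against 3.03 and 3.29 CPM.

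On chromosome 3, Gbp2, which is isoprenylated and coats the vacuoles of intracellular parasites, stood at 263, 226, 240.3 and 204 CPM in GapmeR samples 1 to 4 and at 448 and 498 CPM in the controls. Every GapmeR sample was below both controls. The fall was 2.03-fold, a log2 fold change of -1.02 with a standard error of 0.090 (edgeR adjusted p = 2.2e-07).

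Gbp5, also isoprenylated and known for promoting inflammasome assembly, had 96.1, 70.1, 93.6 and 66.4 CPM after the GapmeR and 160.1 and 189 CPM in the controls. Again no values overlapped. The level fell 2.14-fold, with a log2 fold change of -1.10 and a standard error of 0.16 (edgeR adjusted p = 0.000974).

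Gbp7, which takes part in the oxidative defence against bacteria, had 278, 250.2, 246 and 231 CPM in the GapmeR samples against 309 and 357 CPM. The groups were apart, but by less than for Gbp2 and Gbp5. The fall was 1.33-fold (log2 fold change -0.41, standard error 0.085, edgeR adjusted p = 0.00104). Without Negative Control 2 the log2 fold change of Gbp7 was -0.28 and no longer passed (edgeR adjusted p = 0.0815).

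Gbp3, a further chromosome 3 member and the one with most counts, had 457, 368, 429.7 and 376 CPM in the GapmeR samples and 449 and 504 CPM in the controls. GapmeR sample 1 lay above Negative Control 1, so the groups overlapped. Its log2 fold change of -0.23 did not pass (edgeR adjusted p = 0.059), with an interval of 2 standard errors either side from -0.41 to -0.04. Without GapmeR sample 1 it was -0.28 and passed (edgeR adjusted p = 0.0242). In Gbp2, Gbp3, Gbp5, Gbp6 and Gbp10, GapmeR samples 1 and 3 were both above GapmeR samples 2 and 4.

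On chromosome 5, Gbp10 had the lowest fold change of the family. Its level was 21.7, 14.4, 19.2 and 15.2 CPM after the GapmeR and 46.7 and 54.5 CPM in the controls. All 4 GapmeR values were under the lower control value. The gene fell 2.87-fold (log2 fold change -1.52, standard error 0.15, edgeR adjusted p = 2.5e-05) and was 249th from the lowest among the 18234 fold changes.

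Gbp6, its close relative, had 69.9, 59.7, 60.1 and 53.5 CPM against 106 and 132 CPM. The groups were again apart. The fall was 1.96-fold, a log2 fold change of -0.97 with a standard error of 0.10 (edgeR adjusted p = 6.0e-06).

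Gbp10 and Gbp6 could exchange reads in the counting. Their coding sequences, built from the GENCODE annotation of GRCm39, were 98.4% identical, with 30 mismatches over 1836 bases. The stretch with 12 of these mismatches, coding bases 1526 to 1645, is shown with the differing bases in capitals, since reads from other stretches carry fewer positions that tell the genes apart.
Gbp10: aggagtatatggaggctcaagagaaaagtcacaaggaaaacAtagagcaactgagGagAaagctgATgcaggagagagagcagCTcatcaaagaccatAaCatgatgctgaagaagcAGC
Gbp6: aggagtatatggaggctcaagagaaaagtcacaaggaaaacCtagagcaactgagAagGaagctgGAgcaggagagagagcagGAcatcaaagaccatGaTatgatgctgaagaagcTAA

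Of all 100-base windows along the representative transcripts, 82.2% in Gbp6 and 76.1% in Gbp10 occurred unchanged in another Gbp gene, mostly in Gm43302, a gene model made of exons of both. For Gbp8 the share was 6%, and for the other 6 members it was at most 3.27%. All 4310 exon bases of Gm43302 are exon bases of Gbp10 or Gbp6 as well. The shares of Gbp6 and Gbp10 thus do not measure how alike these genes are to each other. Gm43302, chosen after its values were seen, was counted 11 to 15 times after the GapmeR and 23 and 21 times in the controls. Summed, Gbp6, Gbp10 and Gm43302 gave 69.0 to 92.0 CPM in the GapmeR samples against 154 and 188 CPM. The sum was thus 46.2% of the control level (a log2 ratio of means of -1.11), with no overlap. It does not depend on which of the 3 a counted read went to. Reads that matched more than 1 of them may have gone uncounted, and such reads are missing from the sum.

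Gbp8 was the only member that rose, although Gbp4 also passed as higher when samples were scaled by library size only. It was counted 510, 523, 380 and 462 times after the GapmeR, against 83 and 105 times in the controls. In CPM these were 15.1, 13.4, 12.3 and 14.3 against 3.03 and 3.29. Every GapmeR sample was far above both controls. The level rose 4.34-fold, a log2 fold change of 2.12 with a standard error of 0.14 (edgeR adjusted p = 3.2e-09). Mean levels were 13.8 ± 1.2 CPM (SD, n = 4) after the GapmeR and 3.16 ± 0.18 CPM (SD, n = 2) in the controls. Among the 18234 genes it was 1781st from the highest. Without GapmeR samples 3 and 4, which had the highest macrophage marker sums, the log2 fold change was 2.19 (edgeR adjusted p = 3.4e-13). GapmeR samples 1 and 2 still had macrophage marker sums of 227 and 208 CPM, against 175 and 170 CPM in the controls. The part of this remaining difference in the rise of Gbp8 was not tested.

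Gbp4 and Gbp9, the neighbours of Gbp8, did not pass. Gbp4 had 359, 324, 328 and 329 CPM in the GapmeR samples and 322 and 332 CPM in the controls. GapmeR sample 1 was above both controls, and the other 3 lay between them. The log2 fold change was 0.03, with 2 standard errors either side reaching from -0.12 to 0.18 (edgeR adjusted p = 0.753). Scaled by library size only, which raised the median of all genes from 0.03 to 0.17, Gbp4 was at 0.18 and just passed (edgeR adjusted p = 0.0473).

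Gbp9 had 331, 288, 297 and 298 CPM against 316 and 329 CPM. GapmeR sample 1 was the highest of all 6 and the other 3 were the lowest. Its log2 fold change was -0.09, with an interval from -0.24 to 0.06 (edgeR adjusted p = 0.365), and it turned to 0.06 with scaling by library size only. In the current GENCODE annotation, 1 of the 12 transcripts of Gbp8 and 1 of the 16 of Gbp9 begin at the first exon of Gbp4, and the 3 genes share 107 exon bases. Gbp5, Gbp7, Gbp9 and Gbp2 overlap antisense transcripts there, over 570, 307, 268 and 24 exon bases. The strand setting of the counting is not given in the sources used here. Gbp7 also shares 637 exon bases (10.6%) with Gm43802 on the same strand.

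**Figure D2:**
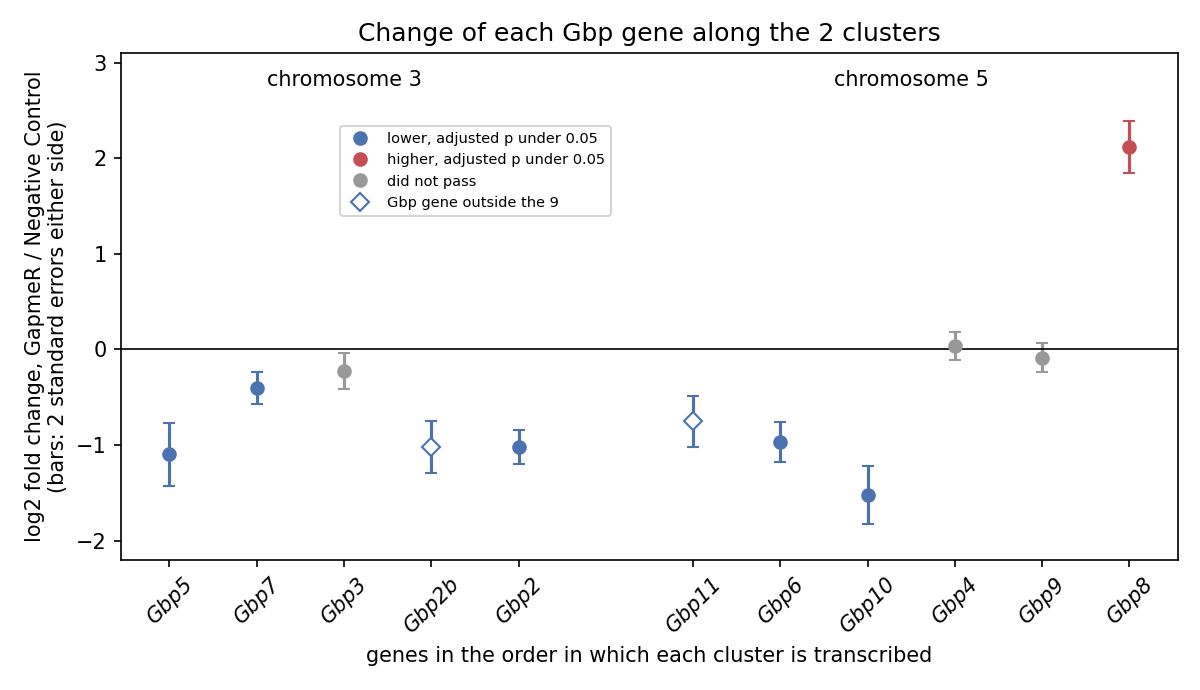
Log2 fold change of GapmeR over Negative Control (vertical axis, with 2 standard errors either side) of 11 Gbp genes, in transcription order within the chromosome 3 and chromosome 5 clusters. Open diamonds are Gbp2b and Gbp11, which are not among the 9, and grey points did not pass the threshold. Lower genes stand in both clusters, and Gbp4, Gbp9 and Gbp8, at 0.03, -0.09 and 2.12, close the chromosome 5 cluster.

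On the mm10 assembly the chromosome 3 genes run in the order Gbp5, Gbp7, Gbp3, Gbp2b and Gbp2, all on the plus strand, from position 142496934 to 142638008. The chromosome 5 genes are on the minus strand, from Gbp11, which ends at 105346476, through Gbp6, Gbp10, Gbp4 and Gbp9 to Gbp8, which starts at 105012513. Gbp2b, the isoprenylated gene between Gbp3 and Gbp2, had 317, 219.6, 290.2 and 234 CPM after the GapmeR and 514 and 564 CPM in the controls. Its log2 fold change was -1.02 (edgeR adjusted p = 0.000173). Gbp11, annotated as a transcribed pseudogene in RefSeq and as protein coding in GENCODE, had 6.38 to 8.45 CPM against 11.0 and 13.5 CPM, a log2 fold change of -0.75 (edgeR adjusted p = 0.000268). Gbp2-ps had at most 5 counts in any sample and was not tested. Within the chromosome 5 cluster, the 3 genes at the Gbp11 end were therefore lower past the threshold, and the 3 at the Gbp8 end were not.

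The genes around the clusters were a list of 12, at 63.0 to 2046 kb from the nearest member, so not all of them flank a cluster closely. Of the 12, 4 were lower and 2 higher past the threshold, beside 20.0% lower and 25.4% higher over all genes tested. Their median log2 fold change was -0.07. The balance of directions was not stable, at 1 lower and 5 higher with scaling by library size only and at 2 lower and 3 higher with the Wald test of DESeq2. When Negative Control 1 or Negative Control 2 was left out, 3 of them passed. On the chromosome 3 side, Kyat3, an aminotransferase gene 63.0 kb from Gbp2 with 34 to 57 counts per sample, was at -0.65 (edgeR adjusted p = 0.0298). Lmo4, a transcriptional cofactor gene 1551 kb from Gbp2, was at -0.43 (edgeR adjusted p = 0.000516). On the chromosome 5 side, Zfp326, which encodes a zinc finger protein and lies 580.7 kb from Gbp6, was at 0.54 (edgeR adjusted p = 0.00738). Hfm1, a meiotic helicase gene 1544 kb from Gbp6, had 101 to 149 counts in the GapmeR samples against 12 and 14, a log2 fold change of 3.04 (edgeR adjusted p = 5.8e-08).

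Summed over the 9 members, the transcripts made up 1889.7, 1614, 1726 and 1587 CPM in GapmeR samples 1 to 4 and 2160.1 and 2400.1 CPM in the controls. Every GapmeR sample was below both controls. The total of the 9 members was 1704 ± 138 CPM (SD, n = 4) against 2280.1 ± 169.7 CPM (SD, n = 2). This was 74.7% of the control level, a log2 ratio of means of -0.42. With scaling by library size only this ratio was -0.27. Gbp2b, on chromosome 3, is in none of the sums. Its mean was 539 CPM in the controls, above that of every member, and 265 CPM after the GapmeR. The 4 chromosome 3 members together stood at 66.8% of control with no overlap, while the 5 chromosome 5 members stood at 88.7% and overlapped. Gbp4, Gbp8 and Gbp9 together were at 99.8% of control, at 625 to 704 CPM against 641 and 665 CPM.

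The make-up of the counts on the 9 members changed with their total. Gbp2 supplied 20.7% of the members' counts in the controls and 13.7% in the GapmeR samples, Gbp5 7.65% and 4.76%, and Gbp10 2.22% and 1.03%. The shares of Gbp4 and Gbp9, whose levels did not pass the test, went from 14.4% to 19.7% and from 14.2% to 17.8%. The share of Gbp7 was 14.6% and 14.8%, and its samples overlapped. Gbp8 was the smallest part in both groups, at 0.139% and 0.81%. A share of one member moves with the level of the others.

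**Figure D3:**
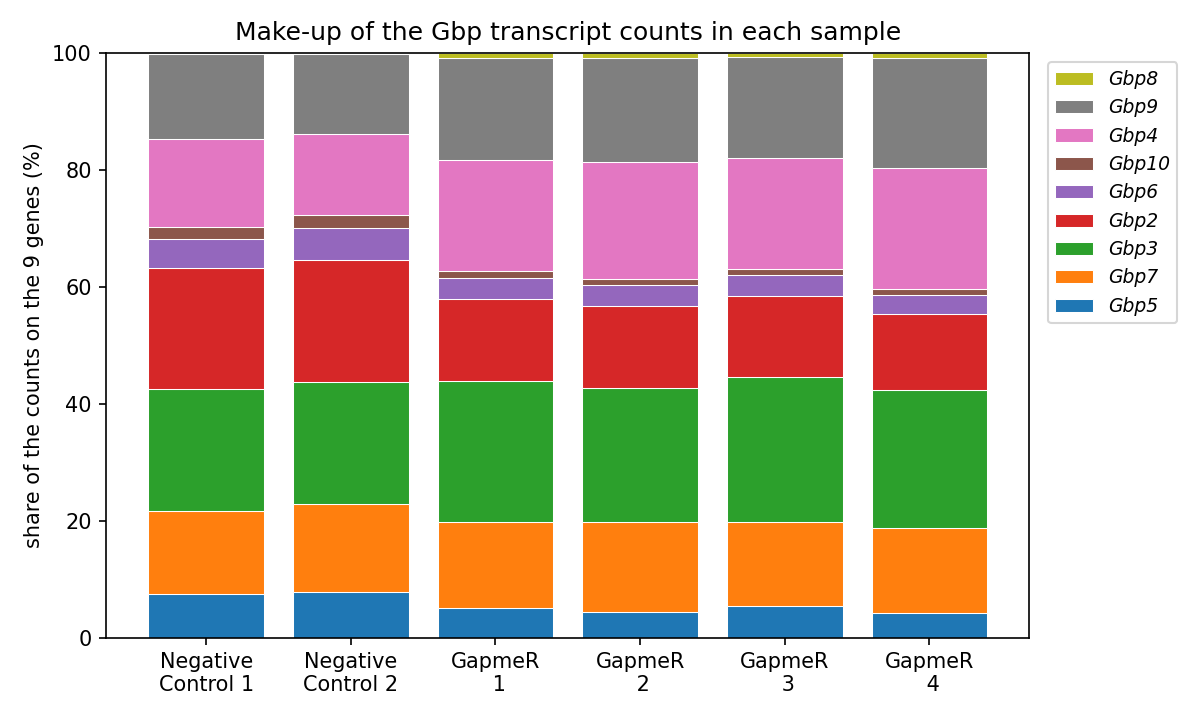
Share of the counts on the 9 genes (vertical axis, percent) that fell on each gene, 1 bar per sample. Gbp2 (red) takes 20.7% and 20.8% in the 2 Negative Control samples and 12.9% to 14.0% in the 4 GapmeR samples, while Gbp4 and Gbp9 take larger shares there.

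Levels of different genes were compared as CPM per kilobase of the representative transcript. Among the 9 members, Gbp2 was highest in the controls, at 186 ± 14 CPM per kilobase (SD, n = 2). Gbp3 came second at 173 ± 14, below Gbp2 in each control although their values overlapped. Gbp2b was not ranked. Gbp4 followed at 72.1 ± 1.6 CPM per kilobase. Gbp7, Gbp9 and Gbp5 came next at 58.9 ± 6.1, 57.0 ± 1.6 and 54.9 ± 6.5 CPM per kilobase and overlapped. Gbp7 was above Gbp5 in each control. Gbp9 was above both in Negative Control 1 and below both in Negative Control 2, so its place is not fixed by these samples. Gbp6 was at 26.0 ± 4.1, Gbp10 at 11.7 ± 1.3 and Gbp8 at 1.98 ± 0.11 CPM per kilobase.

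After the GapmeR the order had Gbp3 first, at 148 ± 15 CPM per kilobase (SD, n = 4), and Gbp2 second, at 91.9 ± 9.7, with no overlap between them. At the lower end Gbp8, at 8.60 ± 0.75 CPM per kilobase, stood above Gbp10, at 4.07 ± 0.79, again with no overlap. Between these ends lay Gbp4 at 73.8 ± 3.5, Gbp9 at 53.6 ± 3.3, Gbp7 at 44.4 ± 3.5, Gbp5 at 25.6 ± 4.9 and Gbp6 at 13.3 ± 1.5 CPM per kilobase. The representative transcript of Gbp8 is 1.6 kb long and longer ones are annotated, so its place depends on which transcript the cells make.

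The pathway that induces the family was followed in a list of 18 genes of interferon receptors and signalling, of which 9 were lower and 1 higher past the threshold. Over all genes tested, 20.0% were lower and 25.4% higher. The median log2 fold change of the list was -0.25. Irf1, an interferon-induced transcription factor that binds many Gbp promoters, had 89.1, 73.5, 91.8 and 87.2 CPM in the GapmeR samples against 153 and 159 CPM in the controls, without overlap. Its log2 fold change was -0.87 (edgeR adjusted p = 4.1e-07).

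Among the receptor genes, Ifngr2, the signalling chain of the interferon gamma receptor, fell with a log2 fold change of -0.50 (edgeR adjusted p = 1.7e-05), while Ifngr1, the ligand-binding chain, was at -0.09 and did not pass (edgeR adjusted p = 0.379). Of the type I interferon receptor chains, Ifnar2 was at -0.19 (edgeR adjusted p = 0.0463) and Ifnar1, at -0.18, did not pass. The kinase gene Jak1 fell, at -0.29, Tyk2 rose, at 0.25, and Jak2, at -0.05, did not pass. Stat2 and Irf9, transcription factors of the type I response, fell by 0.22 and 0.30 on the log2 scale. The inhibitor gene Socs3 was lower at -0.91 (edgeR adjusted p = 2.3e-07), whereas Socs1, at -0.30, did not pass (edgeR adjusted p = 0.0583).

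Among other transcription factor genes, Irf7 fell by 0.61 on the log2 scale (edgeR adjusted p = 0.0116), and Irf8 and Irf2 did not pass, at -0.30 and 0.03. Ptpn2 and Pias1, which restrain the pathway, did not pass either, at -0.03 and 0.01. In Irf7, GapmeR samples 1 and 3 were both above GapmeR samples 2 and 4, as in Gbp2, Gbp3, Gbp5, Gbp6 and Gbp10. The same order was also seen outside the pathway, in the endothelial markers Cdh5 and Eng. With library-size scaling 6 of these 18 genes passed, and without Negative Control 1 or 2 it was 6 or 5, against 10 with all samples.

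The immunity-related GTPases, which act with the guanylate-binding proteins on vacuoles, were all lower, 12 of 12 genes. Their median log2 fold change was -0.74, beside 0.03 for all genes. F830016B08Rik was at -1.67 (edgeR adjusted p = 1.0e-05), Tgtp2 at -1.31 (edgeR adjusted p = 0.00738), Tgtp1 at -1.28 (edgeR adjusted p = 2.4e-06) and Gm12250 at -1.18 (edgeR adjusted p = 9.6e-05). Tgtp1 and Tgtp2 are near-identical copies, so reads could be split between them. All 12 also passed as lower without GapmeR samples 3 and 4, and 10 of them without Negative Control 2. The regulators Irgm1, Irgm2 and Igtp were among the smaller changes, at -0.54, -0.52 and -0.48.

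Other large GTPases were mixed. Of 7 tested, Mx1 and Atl3 fell and Mx2 rose, beside 20.0% lower and 25.4% higher over all genes tested. Mx1, which restricts viruses in the nucleus, was at -1.07 (edgeR adjusted p = 2.3e-05), while Mx2, its neighbour that acts in the cytoplasm, was at 1.25 (edgeR adjusted p = 6.3e-09). Mx2 had 619.7 to 680.0 CPM in the GapmeR samples against 254 and 293 CPM, and Mx1 had 94.7 to 127 CPM against 212 and 252 CPM, so neither pair of groups overlapped. Atl3, an atlastin that fuses membranes of the endoplasmic reticulum, was at -0.26 (edgeR adjusted p = 0.00551).

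Of 13 other interferon gamma targets tested, 11 were lower and 1 was higher, with a median log2 fold change of -0.87. Batf2, a transcription factor gene, was at -1.84 (edgeR adjusted p = 2.1e-06), and Cd274, which encodes the checkpoint ligand PD-L1, at -1.80 (edgeR adjusted p = 1.1e-10). Ubd, a ubiquitin-like modifier, was at -2.47 on 0 to 3 counts in the GapmeR samples against 8 and 5 (edgeR adjusted p = 0.0216). Cxcl10, a chemokine, was at -1.29 (edgeR adjusted p = 6.4e-05). The gene that rose was Nos2, the inducible nitric oxide synthase, at 1.12 on 66 to 94 counts against 27 and 38 (edgeR adjusted p = 0.000753).

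**Figure D4:**
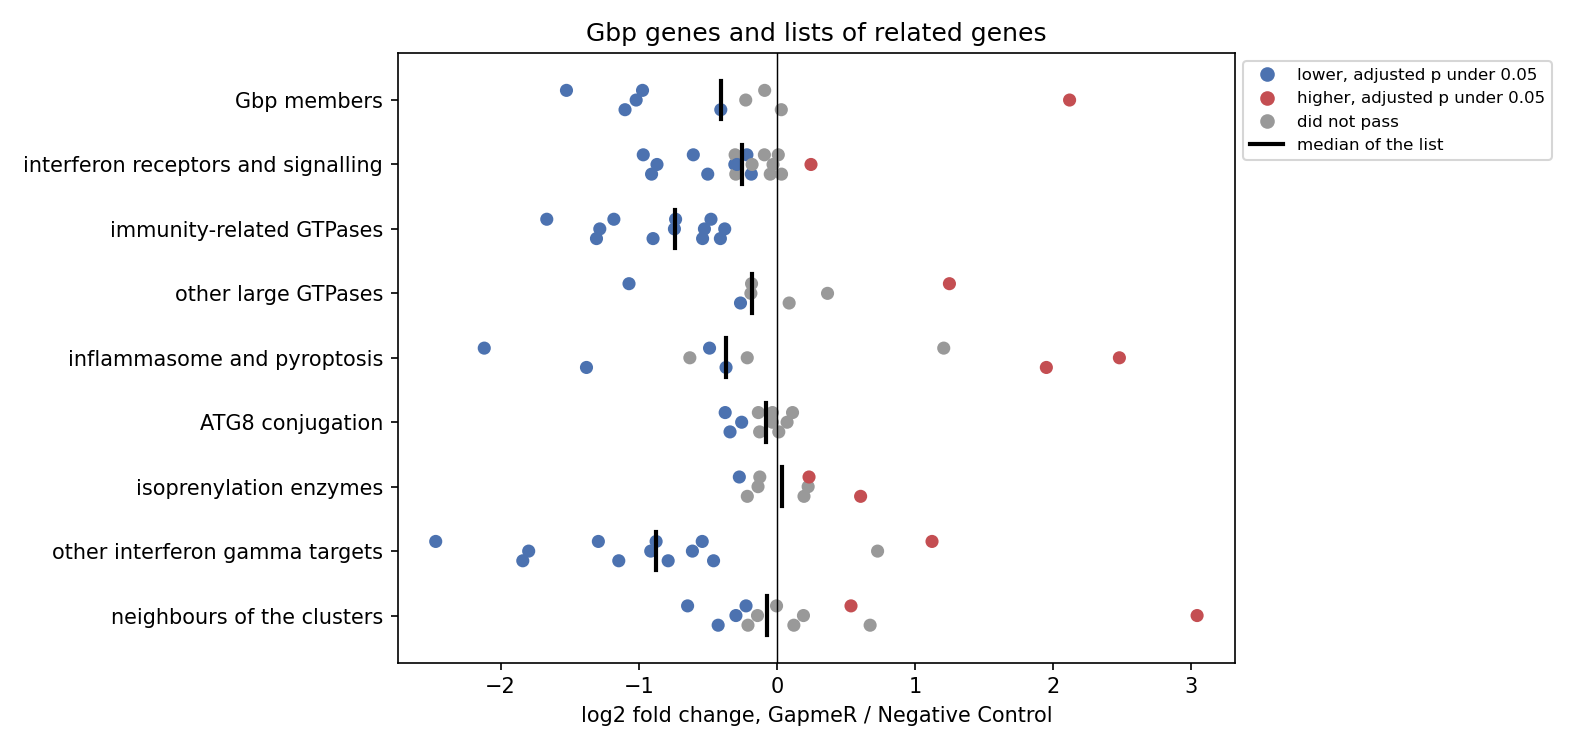
Log2 fold change of GapmeR over Negative Control (horizontal axis) for the 9 Gbp genes and 8 lists of related or neighbouring genes, 1 point per tested gene. Blue and red points passed the threshold as lower and higher, grey points did not, and black bars are medians. The immunity-related GTPases all lie below 0, with a median of -0.74, and the isoprenylation enzymes have a median of 0.04.

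Among genes of the inflammasome and pyroptosis, 4 of 9 tested were lower and 2 higher, with a median log2 fold change of -0.37. The shares over all genes tested were 20.0% lower and 25.4% higher. Gsdmd, the pore-forming protein of pyroptosis, fell by 1.38 on the log2 scale (edgeR adjusted p = 1.8e-09). Il18, a cytokine released by that route, had 6 to 9 counts against 24 and 34, at -2.12 (edgeR adjusted p = 0.000194). Nlrc4, an inflammasome sensor, and Pycard, the adaptor ASC, were higher at 2.48 and 1.95, on at most 23 and 24 counts in any sample (edgeR adjusted p = 0.00288 and 0.0191). Pycard was counted 8, 12, 19 and 24 times in GapmeR samples 1 to 4, and samples 3 and 4 also had the highest macrophage marker sums. Without those samples 4 genes of the list were lower and 1 was higher. Without Negative Control 2, only 2 of the list passed, both lower.

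ATG8 conjugation and isoprenylation serve the delivery and the anchoring of the proteins. Over all genes tested, 20.0% were lower and 25.4% higher, which is the share to set beside both lists. In the ATG8 conjugation list 3 of 10 genes were lower, and the median log2 fold change was -0.08. With scaling by library size only, 1 gene was lower and 1 higher. Atg7, its activating enzyme, was at -0.37 (edgeR adjusted p = 0.000864), Gabarapl2, an ATG8 protein, at -0.34 (edgeR adjusted p = 0.0189) and Atg12, a ubiquitin-like factor of the conjugation step, at -0.26 (edgeR adjusted p = 0.0106). When Negative Control 1, Negative Control 2 or GapmeR samples 3 and 4 were left out, 1 of the 10 passed. Of 8 isoprenylation enzymes, Icmt, the methyltransferase that finishes the anchor, was at 0.61 (edgeR adjusted p = 4.9e-06), Fnta, a prenyltransferase subunit, at 0.23 (edgeR adjusted p = 0.0341), and Ggps1, which makes geranylgeranyl diphosphate, at -0.27 (edgeR adjusted p = 0.017). The count of 3, 1 lower and 2 higher, was 5 without GapmeR sample 2 and 1 without Negative Control 2, and it was 4, all higher, with scaling by library size only.

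The genes whose pattern over the 6 samples was most like the mean pattern of the 9 members were Trim21, Ifit1, 2810474O19Rik, Cdk5rap3 and Ifit3. Likeness was the root mean square difference of centred log2 CPM over the 6 samples, and it was 0.028 for Trim21 and 0.035 for Ifit3 among 12761 genes of at least 1 CPM. Trim21, an intracellular antibody receptor, had 106, 86.0, 93.6 and 87.9 CPM in the GapmeR samples against 115 and 123 CPM. Of the members themselves, Gbp7 was nearest to the mean pattern, at 0.050, and Gbp8 the farthest, at 1.16. Gbp2, Gbp5, Gbp6 and Gbp10, which fell, were at 0.31, 0.37, 0.29 and 0.56. The mean joined these members with Gbp8, which rose, so the 5 genes lay closer to it than any member did. They are like this average and not like each member.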

How the data were processed

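RNA of 6 bEND.3 samples was sequenced as paired reads. The authors trimmed reads and aligned them with STAR to mm10 with Ensembl transcripts, and the submitters' processing notes name Trimmomatic 0.36, STAR 2.5.2b and Subread 1.5.2. The deposited values are raw counts per gene, not normalized. Groups came from the sample labels (4 GapmeR, 2 Negative Control). Another 1 column of per-sample counts, headed like the control columns, matched no sample of the labels used here and was used in no step, although the study describes 4 samples in each group.

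Genes that reached 5 counts in 2 or more samples were tested with the quasi-likelihood test of edgeR 4.0.16 in R 4.3.3 (TMM factors, robust dispersions), with Benjamini-Hochberg adjustment over 18234 genes and a threshold of 0.05. CPM values are TMM-normalised, at 29261988 to 37117934 counts per sample, so 3 counts equal 0.0771 to 0.11 CPM. This limit covers counting error only. The chi-square between replicates was 5.42 to 25.3 per degree of freedom, so none was the same library within sampling noise. The study's DESeq2 Wald test (here DESeq2 1.42.0) was an alternative, as were limma-voom (limma 3.58.1), other scalings, filters and sample subsets. Functions were tested on simulated data. The members and lists were chosen with earlier results of these data known. The text names the members, the other Gbp rows, Gm39822, the interferon signalling genes (1 of which is not reported here), up to 4 of the most changed genes of each other pathway list and the 5 genes most like the family. Promoters came from RefSeq (GRCm38.p6), where 4 of the 9 members matched, and transcripts and coding sequences from GENCODE (GRCm39), read with Python 3.11.15 and Biopython 1.88.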

Additional observations from a re-analysis of the deposited data

Results flagged for a closer look

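In 1 member a single sample stood apart from its group. Gbp4 was at 359 CPM in GapmeR sample 1 and between 324 and 329 CPM in the other 3 GapmeR samples, by Dixon's test on groups of 4. Chance flags about 1 in 20 groups, and 11 Gbp genes were examined. Without that sample the log2 fold change of Gbp4 was -0.00064.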

How the results depend on the processing

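The number of members that passed was 5 to 7 under every alternative run, and Gbp2, Gbp5, Gbp6, Gbp8 and Gbp10 passed in the same direction in all 14 alternatives, with adjusted p-values up to 0.0129. Scaling by library size only changed the share of lower genes among those called from 44.1% to 25.9%. It gave a log2 fold change of 0.059 for Gbp9 and a log2 ratio of -0.27 for the total of the 9 members. For interferon receptors and signalling it gave 6 genes. With 1 sample left out, Gbp4 ranged from -0.00064 (without GapmeR sample 1) to 0.075. Gbp3 passed with no filter on low counts (adjusted p = 0.0159) and Gbp7 failed without Negative Control 2. A 1.5-fold minimum left 4628 of 8268 genes changed. Samples with the same number in their titles deviated from their group means with correlations of -0.11 and 0.17. With 2 such pairs this cannot decide whether they shared a batch, and no other pairing was examined. With the replicate block on 4 samples and 1 residual degree of freedom, 7812 genes, 6 members and 1 gene of ATG8 conjugation passed. With 1 sample left out at a time, genes changed ranged from 5232 (without Negative Control 2) to 8719, interferon signalling from 5 to 10, immunity-related GTPases from 10 to 12, inflammasome from 2 to 6, ATG8 conjugation from 1 to 4, isoprenylation from 1 to 5 and neighbours of the clusters from 3 to 7, and where 1 control was left the lone sample was assumed to vary like the GapmeR group. Without GapmeR samples 3 and 4, an alternative chosen after seeing the data, 6 members and 1 gene of ATG8 conjugation passed. The cause of these shifts was not tested. With 2 controls, the error of their mean limits every comparison.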
